A study of Mus musculus with 8 samples.

Results

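Methyl-CpG binding proteins are the readers of DNA methylation, and the 7 genes for them described here were Mbd1, Mbd2, Mbd3, Mbd4, Zbtb33, Zbtb4 and Zbtb38. They were picked by symbol from an RNA-seq table of 24062 genes, and all 7 were listed and had an adjusted p-value. Cytosines from reduced representation bisulfite sequencing (RRBS), a method that sequences fragments cut at CCGG by the enzyme MspI after bisulfite conversion, were added at annotated gene ends of Mbd1 and Zbtb4. For comparison, the spans of all 7 genes were read as well.

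The samples were stable clones of NIH3T3, a mouse embryonic fibroblast cell line. Clones 10 and 12, labelled 14-3-3-epsilon, carried 14-3-3ε, a protein that binds phosphorylated partners, in p3xFLAG-CMV-10, a plasmid with a strong viral promoter. Clones 2 and 3, labelled control, carried the control vector. All were grown in medium with 10% fetal bovine serum. The protocol gives 800 µg/mL of G418 for the selection of 14-3-3ε cells, from which single colonies were picked and checked by western blot for the FLAG tag. The same 800 µg/mL is listed for the control clones. Both assays used these 4 clones, so each group held 2 clones that had each grown from 1 colony.

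Each assay was deposited as 1 table of the authors' comparison without values for single clones, so neither the spread between clones nor depth can be shown. With 2 clones a group, a difference between single clones and one due to 14-3-3ε can hardly be told apart. Neither table states its direction. Positive values were read as higher in 14-3-3ε clones, and every "higher", "lower", "rose" and "fell" below rests on that reading. Ywhae, which encodes 14-3-3ε in the mouse, gave no check of it, its log2 change being -0.03 (standard error, SE, 0.18; adjusted p 0.942) in the authors' deposited table. Fibroblast identity was checked by level: all 10 fibroblast markers had a mean normalized count (reads averaged over libraries after scaling for depth) of at least 4843 in the authors' deposited table. The highest marker in each of the other lists was at 10.2 for blood (Ptprc), 8.17 for endothelium (Cdh5), 52.7 for epithelium (Krt14), 58.9 for muscle (Des) and 781 for neural cells (Map2) in the authors' deposited table. Hbb-bs, Kdr, Sox2 and Myog were listed at 0, and no epithelial marker was.

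Readers of DNA methylation turn the mark into a change of chromatin. One family carries the methyl-CpG binding domain (MBD): Mbd1 and Mbd2 bind methylated CpG and recruit corepressors, Mbd3 sits in the NuRD remodelling and deacetylase complex with little affinity for methylated DNA of its own, and Mbd4 is a glycosylase that removes thymine or uracil opposite guanine. The other family binds through zinc fingers and carries a BTB domain for protein contacts: Zbtb33, better known as Kaiso, Zbtb4 and Zbtb38. Kaiso can also bind an unmethylated sequence, called the Kaiso site.

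Sequence before the start sites is shown for the 3 zinc finger genes. The run of Zbtb4, whose RNA rose, has no listed cytosine. That of Zbtb33 has 19 listed and no call, though a call lies 223 bp after the start, outside the run. That of Zbtb38 has 40 listed, with calls in both directions. Each run holds the 250 bases before an annotated start, from RefSeq on GRCm38.p6, the assembly of mm10. For Zbtb4 (chr11:69765662-69765911, plus strand) capitals mark CCGG. For Zbtb33 (chrX:38189543-38189792, plus strand) they mark CpGs listed in the RRBS table, none called, and the last one runs past the end. For Zbtb38 (chr9:96719446-96719695, minus strand, the innermost of its 3 starts) they mark CpGs with a called cytosine, and the lone first G belongs to a CpG that begins outside.
Zbtb4: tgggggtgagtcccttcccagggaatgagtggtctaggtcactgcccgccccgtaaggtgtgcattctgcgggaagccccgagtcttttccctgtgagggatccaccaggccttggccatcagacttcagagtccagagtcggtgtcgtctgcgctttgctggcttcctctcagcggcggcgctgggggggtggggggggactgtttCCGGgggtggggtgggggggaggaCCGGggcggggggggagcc
Zbtb33: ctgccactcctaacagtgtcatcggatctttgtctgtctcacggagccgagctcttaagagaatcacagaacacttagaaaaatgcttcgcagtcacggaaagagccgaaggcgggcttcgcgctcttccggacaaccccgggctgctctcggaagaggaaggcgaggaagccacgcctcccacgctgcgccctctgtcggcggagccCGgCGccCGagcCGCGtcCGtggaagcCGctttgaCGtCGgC
Zbtb38: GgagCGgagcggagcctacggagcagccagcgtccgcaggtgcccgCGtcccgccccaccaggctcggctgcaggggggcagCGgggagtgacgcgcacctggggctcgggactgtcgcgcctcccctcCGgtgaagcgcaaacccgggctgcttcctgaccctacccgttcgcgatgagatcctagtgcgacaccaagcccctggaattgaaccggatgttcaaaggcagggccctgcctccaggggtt

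RefSeq start windows, reaching from 250 bases before a start to 50 after it, were matched for 5 of the 7 members and gave 7 windows, since Zbtb38 has 3. Mbd1 and Mbd2 had no entry. The 7 windows held from 8 to 41 CpGs, against a median of 7 over all 32851 windows in the table. CCGG was found in 6 of 7 member windows and in 52.8% of all windows. The window without it was that of Mbd3. The Kaiso site TCCTGCNA, searched on both strands, was found in 1 of 7, also that of Mbd3, and in 4.96% of all windows. These are matches of letters and say nothing of binding. RRBS listed cytosines in 4 of the 7 windows, and in 37.5% of all windows. The 3 with none were those of Mbd3, Zbtb4 and the outermost start of Zbtb38.

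Expression of the family was nearly level between the groups, with 1 exception. Zbtb4 rose, and the other 6 genes had log2 fold changes within 0.11 of zero in the authors' deposited table. A gene was called at the authors' adjusted p under 0.05. By that rule 1 of 7 members was higher and none lower, while 6.15% of all 11482 tested genes were higher, 4.74% lower and 10.9% either. With 7 genes, 1 call is near this background and is not a result about the family. Log2 fold changes were positive in 4 members and negative in 3, and their median was 0.01, beside -0.003 over all tested genes.

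**Figure D1:**
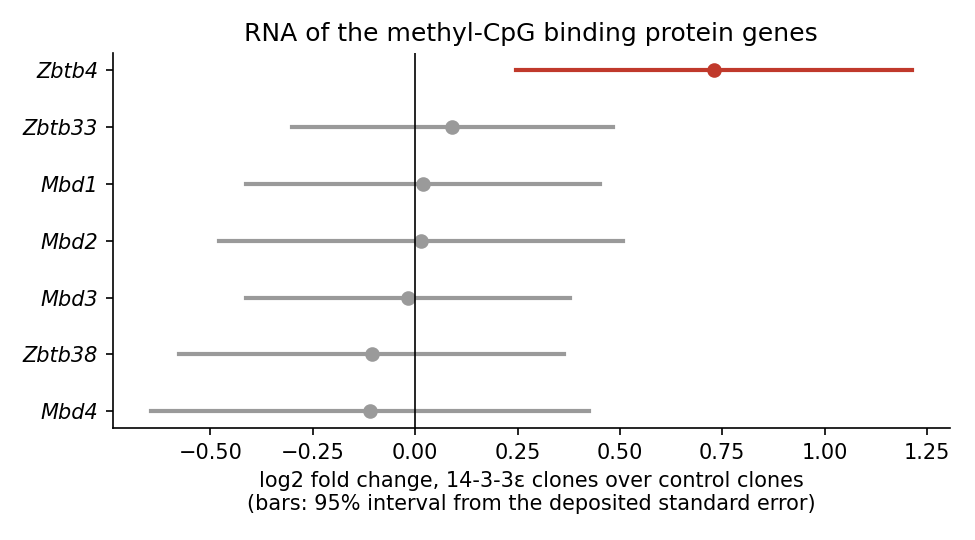
Log2 fold change of RNA, 14-3-3ε clones over control clones, for the 7 genes in the authors' deposited table. Points are the deposited values and bars 95% intervals from the deposited standard errors. Zbtb4 at 0.73 (red, called) is the one whose interval lies above 0. The other 6 (grey, not called) lie between -0.11 and 0.09.

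Zbtb4 encodes a zinc finger repressor that binds methylated CpG and is known to act on the cell cycle inhibitor gene Cdkn1a. Its mean normalized count was 838 and its log2 fold change 0.73 (SE 0.25; adjusted p 0.0337) in the authors' deposited table. That is a 1.66-fold rise, with a 95% interval from 1.19 to 2.32 made from the values of the authors' deposited table. A larger log2 fold change was found in 731 of all 11482 tested genes (6.37%), and in 561 of the 706 genes that rose. The call depends on which genes the adjustment covers: over all 17478 genes with a p-value the adjusted p of Zbtb4 was 0.0508, past the threshold no longer. Chrnb1, a subunit gene of the muscle acetylcholine receptor, lies 10 bp beyond the Zbtb4 span. Its log2 fold change was 0.76 (SE 0.31; adjusted p 0.0980) in the authors' deposited table, and it was not called. Whether counting used strand is not given in sources used here, and reads at the shared boundary of these genes are uncertain.

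Zbtb33, the Kaiso gene, had a mean normalized count of 1097 and a log2 fold change of 0.09 (SE 0.20; adjusted p 0.839) in the authors' deposited table. Zbtb38, whose product also restrains the replication factor gene Mcm10, stood at 909 with a log2 fold change of -0.11 (SE 0.24; adjusted p 0.845) in the authors' deposited table. The 95% intervals of the fold ran from 0.811 to 1.40 for Zbtb33 and from 0.671 to 1.29 for Zbtb38, computed from the authors' deposited table. For neither of these relatives of Zbtb4 was a change detected, and a rise as large as the 1.66-fold of Zbtb4 lies outside both intervals. The difference between genes was not itself tested.

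Of the MBD genes, Mbd1 (mean normalized count 700) had a log2 fold change of 0.02 (SE 0.22) in the authors' deposited table. For Mbd2 (1837) the log2 fold change was 0.01 (SE 0.25) in the authors' deposited table. Mbd3 (3094) gave -0.02 (SE 0.20) in the authors' deposited table. These 3 lay closest to zero of the 7. Mbd4, the glycosylase (284), had the lowest log2 fold change of the 7, -0.11 (SE 0.27), in the authors' deposited table. Adjusted p-values of the 4 MBD genes were 0.974, 0.982, 0.975 and 0.857, in the order Mbd1 to Mbd4, in the authors' deposited table. The 95% intervals of the fold, computed from the authors' deposited table, were 0.751 to 1.37 for Mbd1, 0.717 to 1.42 for Mbd2, 0.751 to 1.30 for Mbd3 and 0.639 to 1.34 for Mbd4. Counts are not scaled for gene length, and no order of level between genes is given.

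Some members overlap other genes, which leaves their reads uncertain. Mbd4 shares 22 bp with the ciliary gene Ift122, whose log2 change was -0.12 (adjusted p 0.805) in the authors' deposited table. Zbtb38 shares 101 bp with the long non-coding RNA gene E030011O05Rik at -0.11 (adjusted p 0.899), also a log2 fold change of the authors' deposited table. Zbtb33 shares 474 bp with Tmem255a, which was hardly detected, at a mean normalized count of 4.25 in the authors' deposited table. Mbd3 shares 2530 bp with Gm30823 and Mbd2 67 bp with Gm31671, both long non-coding RNA genes to which no row of the RNA table was matched.

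In the methylation comparison, 914 cytosines were listed over the 7 gene spans and 1000 bp on each side. Of these, 23 were higher and 16 lower at q under 0.05. Together that was 4.27%, while 4.74% of all 2361680 cytosines were called, 1.92% higher and 2.83% lower. Each member had at least 1 called cytosine, but most calls lay in 3 stretches, at Mbd1, Zbtb4 and Zbtb38. The sources used here do not say how reads of the 2 clones were combined. If they were pooled, a q-value covers read sampling and not the difference between clones.

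At Zbtb4 methylation was lower in a short stretch inside the gene, while the sequence before the start was not listed. The window of 1000 bp on each side of its annotated start, chr11:69764912-69766912, held 50 listed cytosines, 8 of them lower (16.0%, beside 2.83% of all cytosines) and none higher. This window and that of Mbd1 were chosen with earlier results of these data known. Their mean difference was -5.31 percentage points at Zbtb4, as averaged from the authors' deposited table. Among 17781 ends of protein-coding genes with at least 5 listed cytosines, 3.88% had a mean this low or lower.

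The stretch ran from 69766426 to 69766548, that is 514 to 636 bp after the start, and spanned 123 bp. Its edges were set at the first and last lower call of the window. Signs and means inside it lean downward by that choice, and no lower call could lie outside. Of 15 cytosines listed there 14 were below zero, and their mean was -12.7 points in the authors' deposited table. The 8 calls fell on 5 CpGs, of which 3 were called on both strands. Cytosine 69766426 differed by -21.8 points and its partner on the minus strand by -13.8 in the authors' deposited table. At 69766446 the plus strand stood at -17.1 and the minus strand at -15.3 points in the authors' deposited table. The pair at 69766467 had -21.2 and -24.9 points in the authors' deposited table. At 69766439 the minus strand had -9.69 points in the authors' deposited table. Both strands were thus lower at each of the 3 pairs. The largest value, -34.6 points at 69766548 (q 6.01e-08), was on the plus strand, and its partner had -13.2 points and was not called in the authors' deposited table. The 1 listed cytosine above zero in the stretch, on the plus strand at 69766541, had 14.1 points and was not called in the authors' deposited table.

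Outside the stretch, 35 listed cytosines of the window had no call and a mean of -2.16 points in the authors' deposited table. The 32 cytosines between the start and the stretch had a mean of -1.70 points and the 3 after the stretch -7.09 points in the authors' deposited table. The sequence shown above holds CCGG, but no cytosine before the start was listed, so methylation there is not described. Within 10000 bp of the gene span, 133 further cytosines held 1 higher and 1 lower call. One of these, 2336 bp after the start, was higher by 9.82 points in the authors' deposited table. Zbtb4 was the 1 member with both an RNA call and a called window. That window was chosen with earlier results of these data known, and the RNA call depends on the threshold and on which genes the adjustment covers. The 2 readouts come from the same clones and from separate libraries, and no relation between them was tested.

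**Figure D2:**
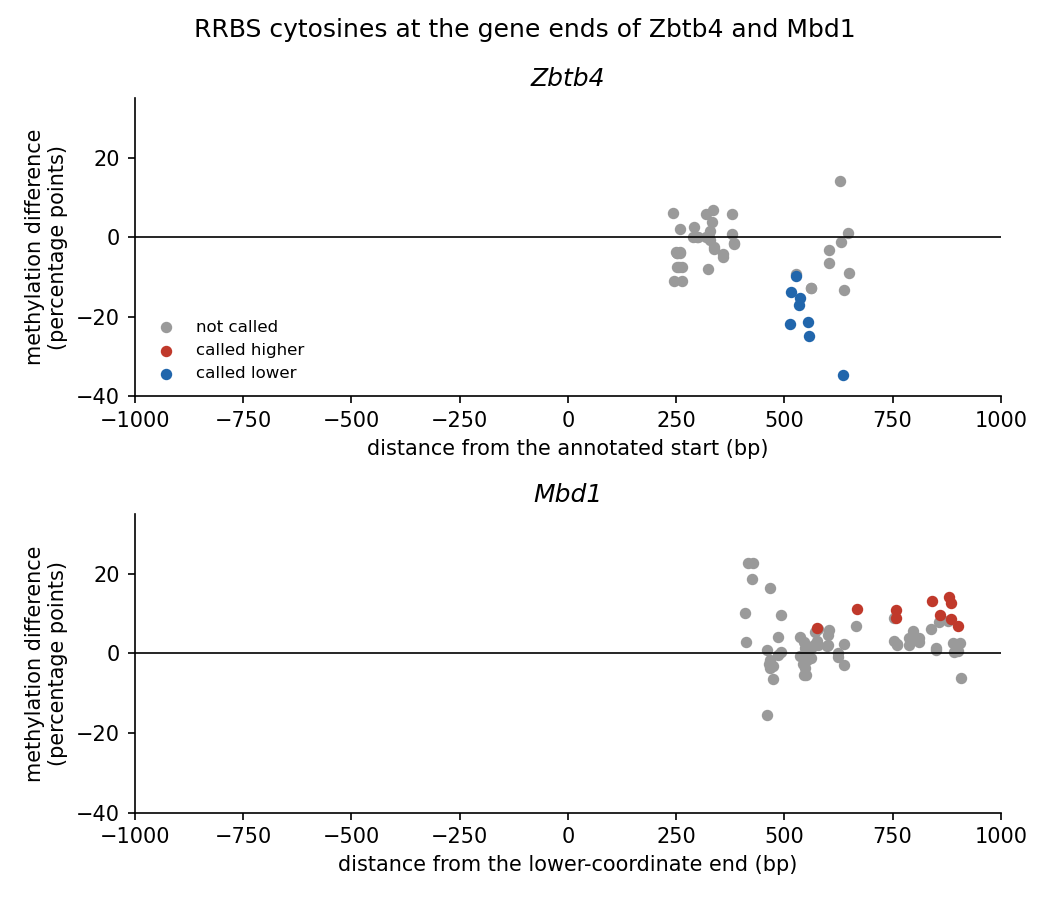
Difference in percent methylation, 14-3-3ε clones minus control clones, of each listed cytosine against its distance from the annotated start of Zbtb4 (top) or the lower-coordinate end of Mbd1 (bottom). Blue points are called lower, red higher and grey not called. The 8 blue points of Zbtb4 lie 514 to 636 bp inside the gene, and the 10 red points of Mbd1 lie 576 to 901 bp inside.

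Mbd1 went the other way in methylation, and no change of its RNA was detected. The strand of Mbd1 is not in the tables used, so its window is given by its lower-coordinate end, chr18:74266605-74268605, and need not hold the start. It held 73 listed cytosines, all inside the gene span, of which 10 were higher (13.7%, beside 1.92% of all cytosines) and none lower. Their mean was 3.70 points in the authors' deposited table, and 4.19% of gene ends had a mean as high or higher. The RNA of Mbd1, as given above, was not called.

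The higher cytosines of Mbd1 ran over 326 bp, from 74268181 to 74268506. This stretch was again bounded by the first and last call of the window, so its signs and means lean upward by that choice. Of the 39 listed there 37 were above zero, and their mean was 5.07 points in the authors' deposited table. Single differences of the 10 calls were small, from 6.49 points at 74268181 to 14.2 at 74268485 in the authors' deposited table. They fell on 8 CpGs, 2 of them called on both strands. Strands were unequal, with 8 calls on the minus strand and 2 on the plus strand, although 20 and 19 cytosines were listed. Means of the stretch were 6.11 points on the minus and 3.97 on the plus strand in the authors' deposited table, so both means were above zero. Outside the stretch, 34 listed cytosines of the window had no call and a mean of 2.12 points in the authors' deposited table. The upward mean was thus not confined to the stretch. The largest single difference of the window, 22.6 points, lay outside the stretch and was not called. Further into the gene, cytosines 8029 and 8088 bp from its end, at 74275634 and 74275693, were called in opposite directions, at -6.95 and 11.6 points in the authors' deposited table.

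Zbtb38 had no listed cytosine within 1000 bp of its outermost start, and its calls lay between its other starts, at 96719850 and 96719445. There 8 cytosines on 7 CpGs were called, 6 higher and 2 lower, from 96719566 to 96719702. This stretch lies 148 to 284 bp after the middle start and 121 to 257 bp before the innermost, and the calls within the last 250 bp are those in capitals in the sequence above. Directions were mixed, and the 37 cytosines listed in these 137 bp averaged 1.95 points in the authors' deposited table. Higher calls crowded at the end away from the innermost start. The plus-strand cytosines 96719690, 96719695 and 96719697 had 18.3, 12.0 and 9.23 points in the authors' deposited table. At 96719701 the plus strand had 12.8 and its minus-strand partner 14.3 points in the authors' deposited table. The sixth higher call, at 96719612, had 8.58 points in the authors' deposited table. The lower calls, at 96719648 and 96719566, had -9.35 and -4.76 points in the authors' deposited table. Over the 81 cytosines from 1000 bp before to 1000 bp after the pair of starts, the mean was 0.0519 points in the authors' deposited table. Over the whole gene 4.19% of 191 listed cytosines were called, against 4.74% in the table.

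At the remaining members, calls were few. Mbd3 had 2 higher cytosines, the strands of 1 CpG at 80400030 on chromosome 10, 499 bp before its start, with 24.5 and 20.4 points in the authors' deposited table. The other 133 listed within 1000 bp of this start were not called. Mbd4 had 2 CpGs called on both strands in opposite directions. At 115852760 on chromosome 6, 581 bp after the start, they were higher by 11.4 and 10.4 points, and at 115852865, 476 bp after it, they stood at -7.55 and -8.23 points in the authors' deposited table. Among the 83 cytosines within 1000 bp of the start of the X-linked gene Zbtb33, 19 of them in the sequence shown, 1 was lower, at 38190016, with -12.1 points in the authors' deposited table. Its mean over these was -0.748 points in the authors' deposited table. Mbd2 was densely covered at its lower-coordinate end, with 148 listed cytosines, a mean of -0.465 points in the authors' deposited table and 1 call. That call, 549 bp inside, had 8.20 points in the authors' deposited table, and 2 further ones deep in the gene had -7.99 and -7.46 points in the authors' deposited table. None of these 4 members had a called window by the rule of at least 3 calls in 1 direction, none in the other, and 10% of listed cytosines. Of 6 member ends with at least 5 listed cytosines 2 met it, those of Zbtb4 and Mbd1, while 2.96% of the 17781 gene ends did (1.87% lower and 1.09% higher). Both windows were chosen with earlier results of these data known, so this difference in shares is not a result about the family.

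**Figure D3:**
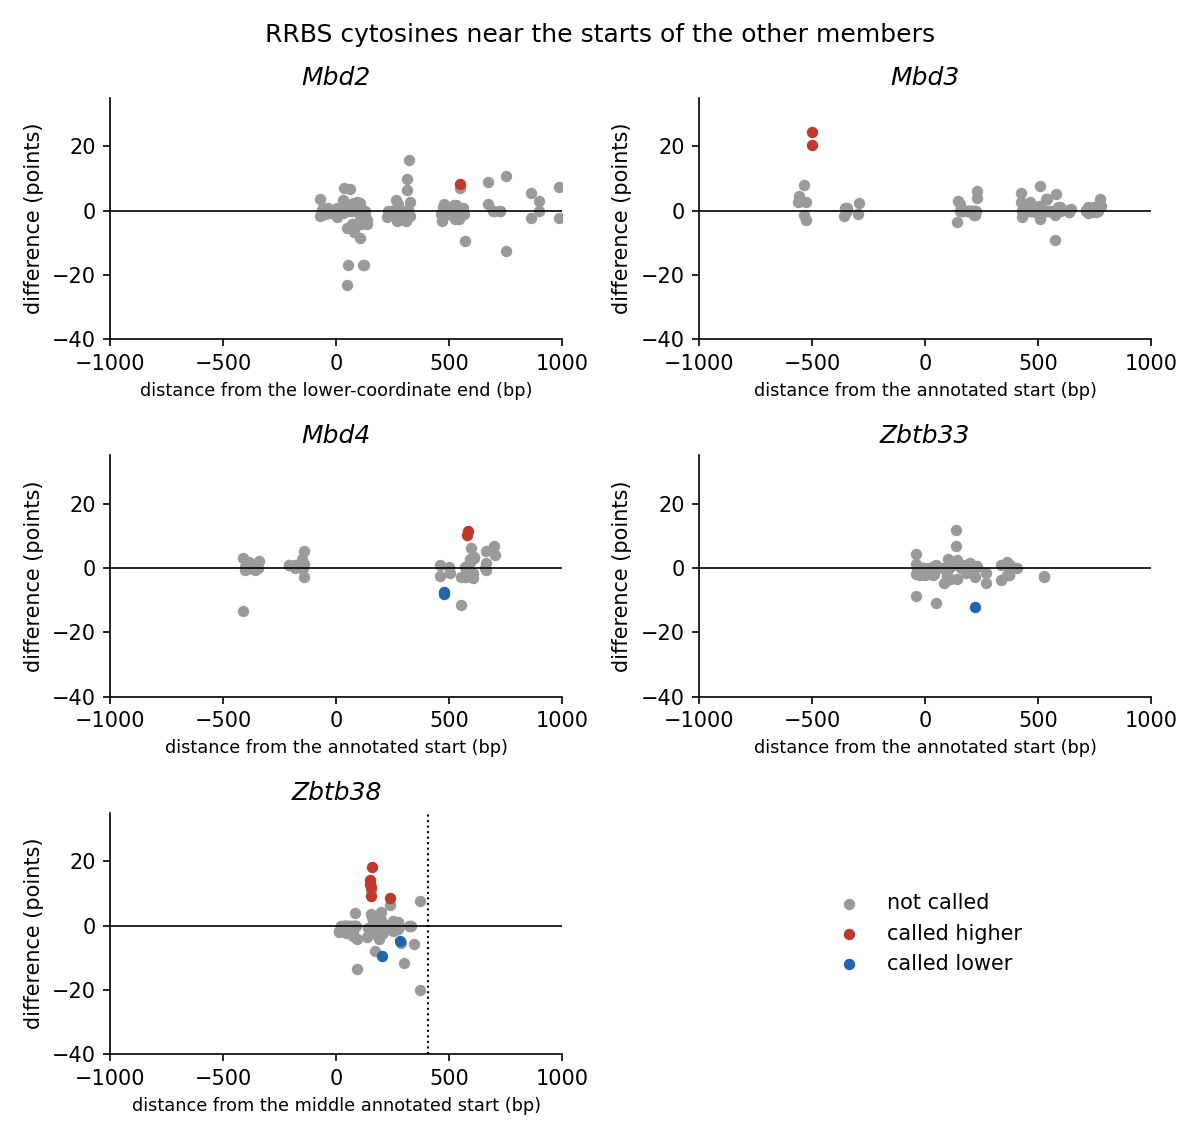
Difference in percent methylation, 14-3-3ε clones minus control clones, of each listed cytosine within 1000 bp of the start of the 5 other members (for Mbd2, of its lower-coordinate end). For Zbtb38 distance is from its middle start and the dotted line marks the innermost start. Red points are called higher, blue lower and grey not called. Calls are few, and at Mbd4 and Zbtb38 they go both ways.

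Partners and relatives of the 7 proteins were read from lists chosen with earlier results known, and they are described by counts only. Over 101 tested genes of these lists, each counted once, 2 were higher (1.98%, beside 6.15% of all tested genes) and 7 lower (6.93%, beside 4.74%), and the median log2 fold change was -0.12 beside -0.003 in the authors' deposited table.

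Closest by structure are the other genes with an MBD or related domain. Of 6 tested none was called, and their log2 fold changes lay between -0.15 for the histone methyltransferase gene Setdb1 and 0.43 for Mbd6 in the authors' deposited table. Their median was 0.18 in the authors' deposited table. Mbd3l1 and Mbd3l2, germ cell relatives of Mbd3, were listed at 0. The readers with an SRA domain, Uhrf1 and Uhrf2, bind methylated DNA in another way and had -0.67 (adjusted p 0.194) and -0.33 (adjusted p 0.345) on the log2 scale in the authors' deposited table, neither called. Among 36 tested BTB zinc finger genes other than the members, 1 was higher and 1 lower (2.78% each, beside 6.15% and 4.74% of all tested genes). Hic1, a repressor gene often silenced by methylation in tumours, had 2.69 and Zbtb12 had -0.96 as log2 changes in the authors' deposited table. The median of the 36 was -0.05 in the authors' deposited table.

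Of the NuRD complex, through which Mbd2 and Mbd3 act, 1 of 13 tested genes was higher (7.69%, beside 6.15% of all tested genes) and none lower, and the median log2 fold change was -0.08 in the authors' deposited table. The called gene was the remodelling ATPase gene Chd3, at 0.70 (SE 0.18; adjusted p 0.00265) in the authors' deposited table. Its close relative Chd4 stood at 0.06 and was not called in the authors' deposited table. The NCoR and Sin3 corepressor complexes, the former a partner of Kaiso, had 10 tested genes here and none called, and their median was -0.06 in the authors' deposited table. Their log2 fold changes ran from -0.62 (adjusted p 0.0831) for the Sin3 subunit gene Sap30 to 0.49 (adjusted p 0.293) for Sap18, another of that complex, in the authors' deposited table.

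Chromatin partners of Mbd1 gave 1 lower of 11 (9.09%, beside 4.74% of all tested genes) and none higher. Chaf1b, a subunit gene of the histone chaperone CAF-1 that loads histones behind the replication fork, fell by 0.80 (log2) in the authors' deposited table. The median of these was -0.16 in the authors' deposited table. Among base excision repair genes, which work with the glycosylase Mbd4, 2 of 15 tested were lower (13.3%, beside 4.74% of all tested genes) and none higher, with a median of -0.23 in the authors' deposited table. Ung, the uracil glycosylase gene, fell by 1.14 and Parp1, whose product senses strand breaks, fell by 0.94 (log2) in the authors' deposited table. Both products act on DNA beyond methylated sites, and a link of these falls to Mbd4 was not tested.

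The list of partners and known targets of Kaiso, Zbtb4 and Zbtb38 had 3 lower of 10 tested (30.0%, beside 4.74% of all tested genes) and none higher, with a median of -0.32 in the authors' deposited table. Fosl1, an AP-1 gene, fell by 1.81, the replication factor gene Mcm10 by 1.20 and the cyclin D1 gene Ccnd1 by 0.89 (log2) in the authors' deposited table. All 3 are growth or replication genes, and whether Kaiso, Zbtb4 or Zbtb38 had a part in these falls was not tested. Cdkn1a, which Zbtb4 can repress, had -0.40 (SE 0.32; adjusted p 0.484) in the authors' deposited table and was not called. Ctnnd1, the gene of the Kaiso partner p120-catenin, had 0.23 and was not called in the authors' deposited table.

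**Figure D4:**
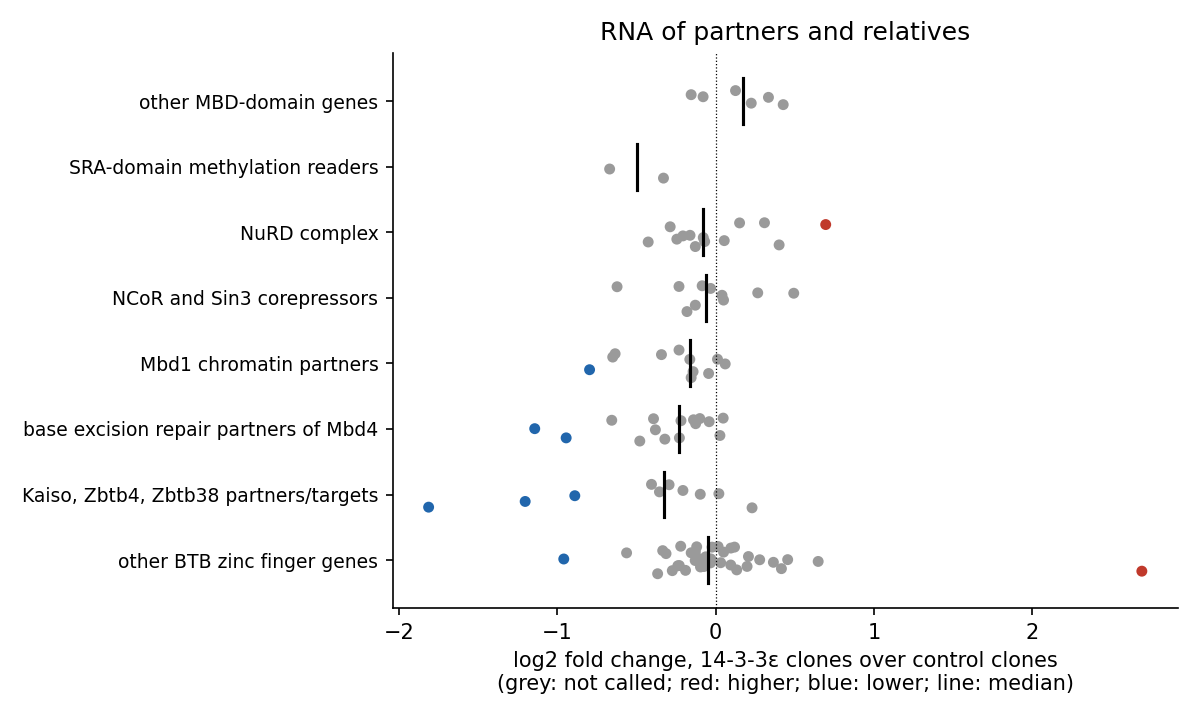
Log2 fold change of RNA, 14-3-3ε clones over control clones, for each tested gene of the 8 lists in the authors' deposited table. Red points are called higher, blue lower and grey not called, and black lines are medians. The 2 red points are Chd3 and Hic1, and the 7 blue points are spread over 4 lists.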

How the data were processed

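RNA-seq and RRBS were each made from 2 control clones and 2 14-3-3ε clones. RRBS started from 1 µg of DNA cut with MspI, with fragments of 150 to 400 bp kept, per the labels' protocols. Trim Galore, Bismark, Bowtie2, methylKit, TopHat2, HTSeq and DESeq2 are named with build mm10 per the submitters' processing notes, without roles, versions or settings.

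In the RNA table the authors deposited a mean level, a signal read here as DESeq2's mean normalized count, with the fold change and its standard error on the log2 scale. The statistic is a score deposited by the authors, the fold change over its error. Of 24062 genes, 17478 have a p-value and 11482 an adjusted p-value from the authors. Fold changes stay small in genes with few reads (at most 0.11 in size at mean normalized counts up to 1), so folds of weak genes may be understated. Settings are not given, so whether folds of stronger genes were also reduced is unknown. In the RRBS table the authors deposited a p-value and q-value per cytosine, and a difference in percent methylation, a signed score in points, per the file headers. No count, coverage or value per clone was available in these tables, so depth is unknown.

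From these, 253 duplicate RRBS lines were removed. Windows were averaged without weights over listed cytosines (Python 3.11.15, pandas 2.3.3, numpy 2.4.6, scipy 1.17.1). The 95% intervals are normal ones from the deposited standard errors. Adjustment of RNA p-values was by Benjamini-Hochberg and was tested on simulated data. RRBS calls used the authors' q-values. Gene spans are RefSeq on GRCm38.p6, and 99.9% of 276832 RRBS cytosines in RefSeq start windows lay at a CG of that assembly. All 7 members are named. From a list all called genes are named, or its extremes where none was called, and some uncalled genes were added for their role after values were seen. The members, windows and lists were chosen with earlier results of these data known. Among the genes of the lists and markers, 2 are not reported here. Alternatives covered the thresholds, the genes adjusted over, the adjustment of RRBS p-values, the centring, the window width and the joining of strands.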

Additional observations from a re-analysis of the deposited data

How the results depend on the processing

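Of the 5 RNA settings tried, 4 leave fold changes as they are and the fifth shifts all by the median of -0.003, so they bear on calls and not on directions. Zbtb4 kept its call at a threshold of 0.1, with genes of a mean normalized count of at least 100 and after subtracting the median fold change, but the members called higher went from 1 to 0 at a threshold of 0.01 and to 0 without the low-count filter, where its adjusted p was 0.0508 (lowest over the settings, 0.0324). Chaf1b lost its call at 0.01. Higher calls at Mbd1 went from 10 to 5 at q under 0.01, and to 0 both at a difference of at least 25 points and in a window of 500 bp on each side. Lower calls at Zbtb4 went from 8 to 1 at 25 points or more and to 0 at 500 bp, where the mean was -1.70 points. By construction such a window ends before the stretch, at Mbd1 too, where its 17 cytosines averaged 4.43 points. Joining strands made the CpG the unit, with the smaller q of its strands. Zbtb4 then had 5 lower of 25 CpGs, at an unchanged mean of -5.31 points. Over all 7 members, higher calls went from 23 to 14 at q under 0.01 and to 0 at 25 points, and lower calls from 16 to 1 at 25 points. With Benjamini-Hochberg applied to the deposited RRBS p-values, higher calls of the 7 members went to 20 and lower calls stayed at 16. At Mbd1 higher calls then went from 10 to 8, and at Zbtb4 lower calls stayed at 8. No paired analysis was possible because the groups share no clone number and the tables hold no value per clone. For the same reason no clone could be left out. Depth is unknown, so a member or cytosine that was not called is not shown to be unchanged.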
